A study of Mus musculus with 16 samples.

Results

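The 10 genes described here encode the enzymes that make NAD+ from salvaged precursors, together with the kinases that turn NAD+ into NADP+: Nmrk1, Nmrk2, Nampt, Naprt, Nmnat1, Nmnat2, Nmnat3, Nadsyn1, Nadk and Nadk2. They were taken by gene symbol. All 10 were listed in each of the 4 deposited tables, among 22098 genes listed in any table and 19256 listed in all 4. Mouse heart RNA was sequenced in 16 libraries of 4 groups: 3 libraries of Vehicle SHAM, 4 of NR SHAM, 4 of Vehicle TAC and 5 of NR TAC. TAC is read here as transverse aortic constriction, its common meaning in cardiology, a surgery that loads the left ventricle with pressure, SHAM is the control surgery, and NR, in a study whose title is about raising NAD+, is the common short form of nicotinamide riboside. Strain, sex, age, NR dose and the time after surgery are not given in the sources used here, and nothing says whether each library came from its own animal, so the spread behind the p-values may be technical. The deposited tables give 1 mean per group and 1 DESeq test per pair of groups, with no value per library, so means are printed without a standard deviation and the depth of each library is unknown.

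NAD+ carries electrons in fuel oxidation and is consumed by sirtuins, poly(ADP-ribose) polymerases and the glycohydrolase CD38, so cells keep rebuilding it. Nampt joins nicotinamide to a ribose phosphate and gives nicotinamide mononucleotide, the main salvage step in most tissues. Nmrk1 and Nmrk2 reach the same product by phosphorylating nicotinamide riboside, and Nmrk2 is known as the kinase of striated muscle. Naprt makes the mononucleotide of nicotinic acid, the 3 Nmnat enzymes turn mononucleotides into dinucleotides, and Nadsyn1 amidates the nicotinic acid dinucleotide to NAD+. Nadk in the cytosol and Nadk2 in mitochondria make NADP+.

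The promoters of Nmrk2, the member whose means differed most between groups, and Nampt, the member with the highest level, are shown because they hold different sequence elements. Each is the 250 bases before the RefSeq start on GRCm38.p6, read 5′ to 3′ on the gene's strand. Nmrk2 was read from chr10:81202038-81202287 on the minus strand, and Nampt from chr12:32820085-32820334 on the plus strand. Capitals mark matches, on either strand, to TATAAA, to GGGCGG or to the nuclear receptor element AGGTCA.
Nmrk2: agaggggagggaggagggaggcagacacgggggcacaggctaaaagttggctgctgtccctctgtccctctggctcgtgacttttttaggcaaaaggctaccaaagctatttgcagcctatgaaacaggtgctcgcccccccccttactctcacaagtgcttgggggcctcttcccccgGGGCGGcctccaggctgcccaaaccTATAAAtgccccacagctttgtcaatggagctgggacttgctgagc
Nampt: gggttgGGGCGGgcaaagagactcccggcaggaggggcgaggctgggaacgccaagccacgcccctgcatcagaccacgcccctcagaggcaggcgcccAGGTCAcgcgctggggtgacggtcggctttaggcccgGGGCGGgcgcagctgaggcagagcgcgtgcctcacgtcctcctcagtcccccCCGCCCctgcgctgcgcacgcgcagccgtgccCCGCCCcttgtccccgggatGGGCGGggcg
The Nmrk2 window held 1 TATAAA, 46 to 41 bases before the start, and 1 GGGCGG, 71 to 66 bases before it. The Nampt window held 5 GGGCGG, of which 2 were on the opposite strand, and 1 AGGTCA, 151 to 146 bases before the start. Bases G and C made up 58.8% of the Nmrk2 window and 75.6% of the Nampt window, beside a median of 52.4% over 32817 mouse promoters (quartiles 45.2% and 61.2%). Over those promoters 12.4% held TATAAA, 32.7% GGGCGG, 14.0% AGGTCA, 6.02% the E-box CACGTG and 1.47% a CArG box. RefSeq promoters were found for 8 of the 10 members, and Naprt and Nadk2 are named only. Of these members' 10 promoters, the Nmrk2 promoter was the one with TATAAA, the downstream of 2 Nadk promoters was the one with the E-box, 40 to 35 bases before its start, and none held a CArG box. These matches describe letters in the windows and were not tested as binding sites.

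Per kilobase of exon, which allows levels of different genes to be compared, Nampt was the highest of the 10 in every group, between 1729 and 2733 normalized counts per kilobase. Nadk2 lay between 442 and 705 per kilobase, Nadk between 383 and 446, and Nmnat1, the nuclear member of its family, between 302 and 361. Naprt (93.2 to 121 per kilobase), the mitochondrial Nmnat3 (85.3 to 103), Nadsyn1 (35.6 to 41.0) and Nmrk1 (32.2 to 38.2) were lower. The neuronal Nmnat2 was the lowest, between 1.07 and 2.84 per kilobase. Nmrk2 moved between these ranks, from 89.8 per kilobase in NR SHAM to 1204 in Vehicle TAC. Of the summed level of the 10 genes per kilobase, Nampt made up 54.4% in Vehicle SHAM and 39.4% in Vehicle TAC, while Nmrk2 made up 3.95% and 27.5%. For these levels the group means of the 4 tables were set on 1 scale through the groups that 2 tables share, and no test was made across tables.

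**Figure D1:**
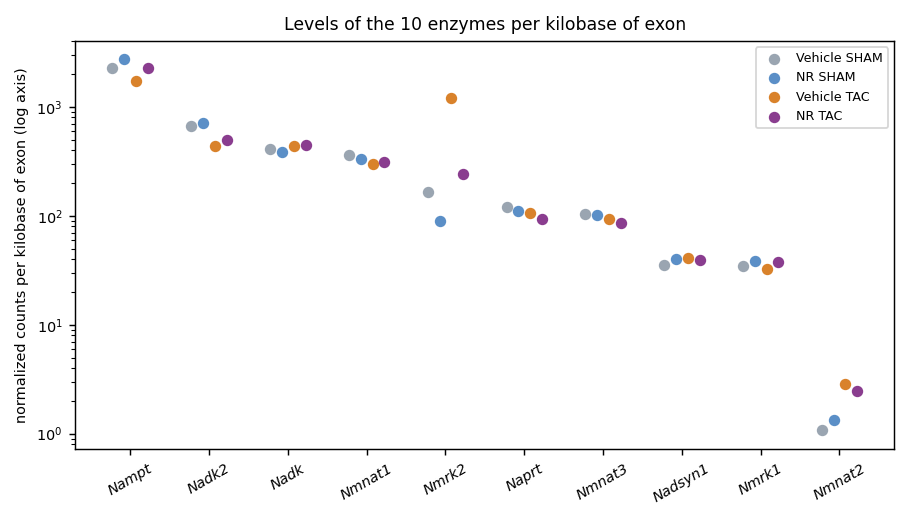
Group means of the 10 enzymes on the common scale, in normalized counts per kilobase of exon (log axis), with 1 point per group. Nampt lies highest in all 4 groups, Nmnat2 lowest, and the Nmrk2 point of Vehicle TAC, at 1204, lies far from its other 3.

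Between groups, 4 of the 10 members had a highest mean at least 1.5 times their lowest. On the common scale, in normalized counts, Nmrk2 had means of 304 in Vehicle SHAM, 166 in NR SHAM, 2233 in Vehicle TAC and 448 in NR TAC, a 13.4-fold span. Nampt had 11414, 13813, 8736 and 11373 in the same order of groups, and both TAC groups lay below the SHAM group of the same treatment. Nadk2 was likewise lower in the TAC groups, with 3402 and 3606 in the SHAM groups of vehicle and NR and 2261 and 2552 in their TAC groups. The span was 1.58-fold for Nampt, 1.60-fold for Nadk2 and 2.65-fold for Nmnat2, whose means were 6.20 to 16.4 counts. The other 6 members spanned 1.15-fold to 1.29-fold. When groups were scaled by the total of all gene means, 2 members reached 1.5-fold and only Nmrk2, Nmnat2 and Nadk2 kept the same order of groups.

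**Figure D2:**
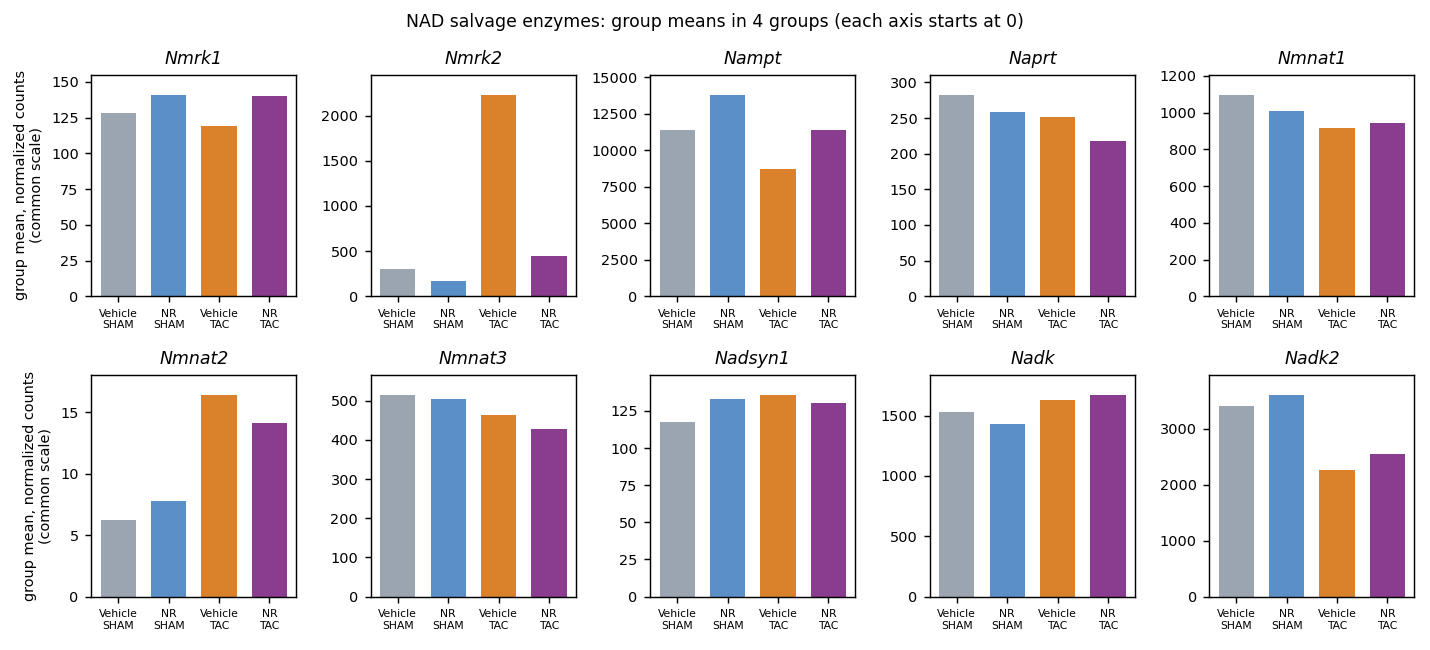
Group means of each enzyme in normalized counts on the common scale (bars, each axis from 0), with no error bars because no values per library are given. The Nmrk2 bar of Vehicle TAC stands at 2233 and its other 3 between 166 and 448, while Nampt and Nadk2 are lower in each TAC group than in the SHAM group of the same treatment.

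Of the nicotinamide riboside kinases, Nmrk2 had the widest differences of all 10 members and Nmrk1 was among those with the narrowest. In vehicle hearts the Nmrk2 mean was 2295 normalized counts after TAC and 313 after SHAM surgery, a log2 fold change of 2.87. This had a DESeq p of 0.165 and adjusted p of 1 in the authors' deposited table. The error that this p implies was 2.07, and the approximate 95% interval ran from −1.18 to 6.92, so this pair fixed neither the size nor the direction of the difference. In NR hearts Nmrk2 rose after TAC, from 163 to 440 normalized counts, 2.69-fold or 1.43 on the log2 scale, with a adjusted DESeq p of 2.5e-04, in the authors' deposited table. Its implied error was 0.267 and its interval ran from 0.90 to 1.95. By p it stood 8th among the 20946 genes of that table. The smaller of the 2 differences was thus the one past the threshold. The difference between them, NR minus vehicle, was −1.44 on the log2 scale (approximate 95% interval −5.53 to 2.64, approximate p 0.488, adjusted p 1 over 18774 genes), so the TAC effect on Nmrk2 was not shown to differ with NR.

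Set against vehicle, NR hearts had the lower Nmrk2 mean under both surgeries, and neither difference passed. After TAC the means were 2335 with vehicle and 469 with NR (log2 fold change −2.31, DESeq p 0.108, adjusted p 1) in the authors' deposited table, with an approximate interval of −5.14 to 0.51. After SHAM surgery they were 288 and 158 (−0.87, DESeq p 0.0165, adjusted p 1) in the authors' deposited table, with an interval of −1.57 to −0.16. That unadjusted p ranked 105th among 19917 genes. Nmrk2 lies on chr10:81198170-81202051 of GRCm38, on the minus strand. Of its exon bases 270, or 14.6%, also lie in exons of the antisense gene Atcayos, and whether counting used strand is not given in the sources used here. Atcayos had means of 1179 and 1206 in the vehicle TAC comparison and 1280 and 1017 in the NR one in the authors' deposited table. For NR it had 1227 and 1082 in TAC hearts and 1087 and 1237 in SHAM hearts in the authors' deposited table. In counts, its differences for TAC in NR hearts and NR in SHAM hearts were close in size to those of Nmrk2 and opposite in direction. For TAC in vehicle hearts and NR in TAC hearts they were far smaller than those of Nmrk2 and in the same direction. The part of shared reads in the Nmrk2 counts was not tested.

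Nmrk1, the more widely expressed kinase, had log2 fold changes of −0.11 and −0.01 for TAC in vehicle and NR hearts and 0.23 and 0.14 for NR in TAC and SHAM hearts, each with a adjusted DESeq p of 1 in the authors' deposited table. Scaling by totals turned its 2 TAC values positive, at 0.04 and 0.08. Per kilobase, the level of Nmrk2 was 4.73 times that of Nmrk1 in Vehicle SHAM and 2.35 times in NR SHAM. That ratio was 37.4 in Vehicle TAC and 6.37 in NR TAC, so the riboside kinase transcripts were mostly Nmrk2 in all 4 groups.

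Markers of other cell types also differed between groups, some in the order of the Nmrk2 means and others not. The summed level of 10 hepatocyte markers was 757 to 759 counts in Vehicle SHAM, 738 in NR SHAM, 40983 to 41010 in Vehicle TAC and 1634 to 1638 in NR TAC. All 10 had positive log2 fold changes for TAC in vehicle hearts (median 7.79), and all 10 negative ones for NR in TAC hearts (median −8.01), in the authors' deposited table. None was called, and 0 and 6 of them had an unadjusted DESeq p below 0.05, beside 4.89% and 2.61% of all genes. In NR hearts, where Nmrk2 passed, 3 of the 9 listed were positive after TAC (median −1.72) in the authors' deposited table. Of the 6 negative ones, 3 had an unadjusted DESeq p below 0.05, beside 6.98% of all genes. Alb (albumin of blood plasma) had means of 111 and 10.1 there, and Fgb and G6pc were listed at 0 in NR TAC in the authors' deposited table. Of the 10, 6 lay below 10 counts in NR TAC, the group where Nmrk2 was called higher, and most of the sum there came from Ahsg, with means of 252 and 963 in NR SHAM and NR TAC, and Cyp2e1, with 253 and 597, in the authors' deposited table. For NR in SHAM hearts 8 of 9 were positive (median 1.88) in the authors' deposited table. The part of these cells in the Nmrk2 means was not tested. The 6 atrial muscle markers summed to 4508 to 4512 in NR SHAM and 49853 to 50007 in NR TAC, beside 9782 to 9816 and 11547 to 11557 in the 2 vehicle groups, and their part in the Nmrk2 rise was not tested. Skeletal muscle markers, of interest because Nmrk2 is a muscle gene, summed to 33801 to 37646 in all 4 groups with 8 of 9 listed, but nearly all of this was Ckm, which heart muscle also expresses, and Myh1 was at 0 in NR SHAM. After TAC 5 of 8 were positive in vehicle hearts (median 0.469) and 6 of 7 in NR hearts (median 0.377), with 0 called and 2 and 1 at an unadjusted DESeq p below 0.05, in the authors' deposited table. Among the positive ones, Tnnt3, at low counts, had means of 5.40 and 15.9 in vehicle hearts and 3.02 and 12.3 in NR hearts in the authors' deposited table. Myl1, also positive, had 378 and 540, and 375 and 535, in the authors' deposited table. Ckm was negative in both, with 38302 and 34183 in vehicle hearts and 34553 and 32594 in NR hearts in the authors' deposited table. The sum of the 8 fibroblast markers followed the same order of groups as Nmrk2, as did the lymphocyte sum given below. For fibroblast markers it was 51003 to 51038 in NR SHAM and 59167 to 59236 in Vehicle SHAM. In the TAC groups it was 73028 to 73131 with NR and 82316 to 82387 with vehicle. After TAC 6 of the 8 fibroblast markers were positive in vehicle hearts and 8 of 8 in NR hearts (medians 0.621 and 0.444) in the authors' deposited table. Of these 0 were called, and 1 in each comparison had an unadjusted DESeq p below 0.05. For NR 5 of 8 were negative in TAC hearts and 8 of 8 in SHAM hearts (medians −0.503 and −0.219, 0 called) in the authors' deposited table. The 8 macrophage markers were all positive in both TAC comparisons (medians 0.620 and 0.645; 0 called, 0 and 1 at an unadjusted DESeq p below 0.05) in the authors' deposited table, and summed to 8339 to 8941 in the SHAM groups and 13160 to 14128 in the TAC groups. The part of skeletal muscle, fibroblast, lymphocyte and macrophage RNA in the Nmrk2 means was not tested. The 8 cardiomyocyte markers were detected in every group and summed to 1806481 to 2028676, lower in each TAC group than in the SHAM group of the same treatment. After TAC 6 of 8 were negative in vehicle hearts and 6 of 8 in NR hearts (medians −0.193 and −0.195) in the authors' deposited table. Of these markers 0 were called, and 1 and 2 had an unadjusted DESeq p below 0.05. The part of heart muscle RNA in the means of Nmrk2, Nampt and Nadk2 was not tested. In RNA of heart tissue, fewer cells of a type and less RNA per cell cannot be told apart.

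**Figure D3:**
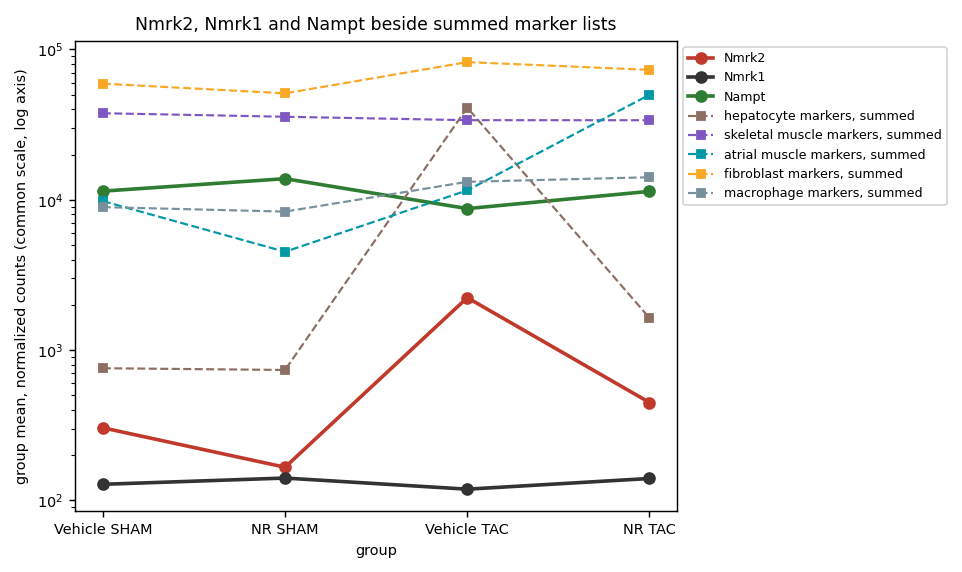
Group means of Nmrk2, Nmrk1 and Nampt (circles) and summed levels of marker lists (squares) in normalized counts on the common scale (log axis), 1 point per group with lines to guide the eye. Nmrk2 and the hepatocyte sum both peak in Vehicle TAC, the atrial sum peaks in NR TAC, and Nmrk1 stays between 119 and 141.

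Nampt, the nicotinamide phosphoribosyltransferase, had lower means after TAC and higher means with NR, and no pair passed. Vehicle hearts had 11742 counts after SHAM surgery and 8980 after TAC (−0.39 on the log2 scale, DESeq p 0.0357, adjusted p 1) in the authors' deposited table. In NR hearts the means were 13549 and 11164 (−0.28, DESeq p 0.104, adjusted p 0.885) in the authors' deposited table. The 2 TAC values thus had the same sign, and their difference was 0.11 (approximate 95% interval −0.39 to 0.60). NR was associated with 9135 and 11885 counts in TAC hearts (0.38, DESeq p 0.0868, adjusted p 1) in the authors' deposited table. In SHAM hearts the vehicle and NR means were 10816 and 13101 (0.28, DESeq p 0.0765, adjusted p 1) in the authors' deposited table. Implied errors were 0.156 to 0.222 in these 4 comparisons, so the intervals were narrow beside those of Nmrk2. Nampt lies on chr12:32819545-32853349, on the plus strand. Its level per kilobase was 13.8 times that of Nmrk2 in Vehicle SHAM and 30.4 times in NR SHAM, and 1.44 and 9.30 times in Vehicle TAC and NR TAC.

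Naprt, the entry step for nicotinic acid, had negative log2 fold changes in all 4 comparisons, from −0.24 to −0.13, with adjusted DESeq p of 0.939 or 1 in the authors' deposited table. Its level per kilobase was a small part of that of Nampt, which was 16.2 to 24.8 times higher. Of its exon bases 277, or 11.8%, are shared with Eef1d on the same strand, so its counts are uncertain. Nadsyn1, the amidating enzyme of that branch, had log2 fold changes of 0.20, −0.03, −0.06 and 0.18 for TAC in vehicle hearts, TAC in NR hearts, NR in TAC hearts and NR in SHAM hearts, with adjusted DESeq p of 1 in the authors' deposited table. Scaling by totals turned the value for TAC in NR hearts to 0.06.

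The Nmnat enzymes had small differences apart from Nmnat2. Nmnat1 had TAC log2 fold changes of −0.26 and −0.09, and Nmnat3 of −0.15 and −0.24, in vehicle and NR hearts, with adjusted DESeq p of 0.898 or 1 in the authors' deposited table. Values for NR were 0.04 in TAC hearts and −0.12 in SHAM hearts for Nmnat1, and −0.12 and −0.03 for Nmnat3, with adjusted DESeq p of 1 in the authors' deposited table. The Nmnat1 value in TAC hearts turned to −0.04 under scaling by totals. Nmnat2 had the next largest TAC values after Nmrk2, at 6.38 and 16.9 normalized counts in vehicle hearts (1.28, DESeq p 0.0675, adjusted p 1) in the authors' deposited table. In NR hearts its means were 7.65 and 13.9 (0.78, DESeq p 0.156, adjusted p 0.934) in the authors' deposited table. At such low counts the implied errors were 0.698 and 0.551. For NR it had −0.21 in TAC hearts and 0.29 in SHAM hearts, with adjusted DESeq p of 1 in the authors' deposited table. The level of Nmnat1 per kilobase was 3.26 to 3.65 times that of Nmnat3 across the 4 groups.

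Of the NAD kinases, mitochondrial Nadk2 had lower means after TAC and cytosolic Nadk did not. In vehicle hearts the Nadk2 means were 3500 after SHAM surgery and 2324 after TAC (log2 fold change −0.59, DESeq p 0.00268, adjusted p 0.509) in the authors' deposited table. In NR hearts they were 3537 and 2505 (−0.50, DESeq p 3.5e-04, adjusted p 0.0585) in the authors' deposited table. By p Nadk2 ranked 106th of 20540 genes in the first table and 126th of 20946 in the second, and its approximate intervals, −0.98 to −0.21 and −0.77 to −0.22, both lay below 0. With genes under a mean of 10 left out of the adjustment its adjusted p in NR hearts became 0.0430, and 0.0370 with a minimum of 50, so this member lies at the threshold. The 2 TAC effects differed by 0.09 (−0.38 to 0.57). NR values for Nadk2 were 0.17 in TAC hearts and 0.09 in SHAM hearts, with adjusted DESeq p of 1 in the authors' deposited table. Nadk had 0.09 and 0.22 for TAC in vehicle and NR hearts (adjusted DESeq p 1 and 0.925) and 0.03 and −0.09 for NR in TAC and SHAM hearts in the authors' deposited table, and its value for NR in TAC hearts became −0.05 under scaling by totals. Per kilobase, Nadk2 stood at 1.63 and 1.84 times Nadk in the vehicle and NR SHAM groups, and at 1.02 and 1.12 times in their TAC groups. Nadk2 lies on chr15:9071260-9110891. The other members lie on chr19:18631950-18652428 (Nmrk1), chr4:149467572-149485202 (Nmnat1), chr1:152954993-153119261 (Nmnat2), chr9:98287435-98420438 (Nmnat3), chr15:75890956-75894481 (Naprt), chr7:143795584-143822849 (Nadsyn1) and chr4:155562378-155591001 (Nadk) of GRCm38.

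**Figure D4:**
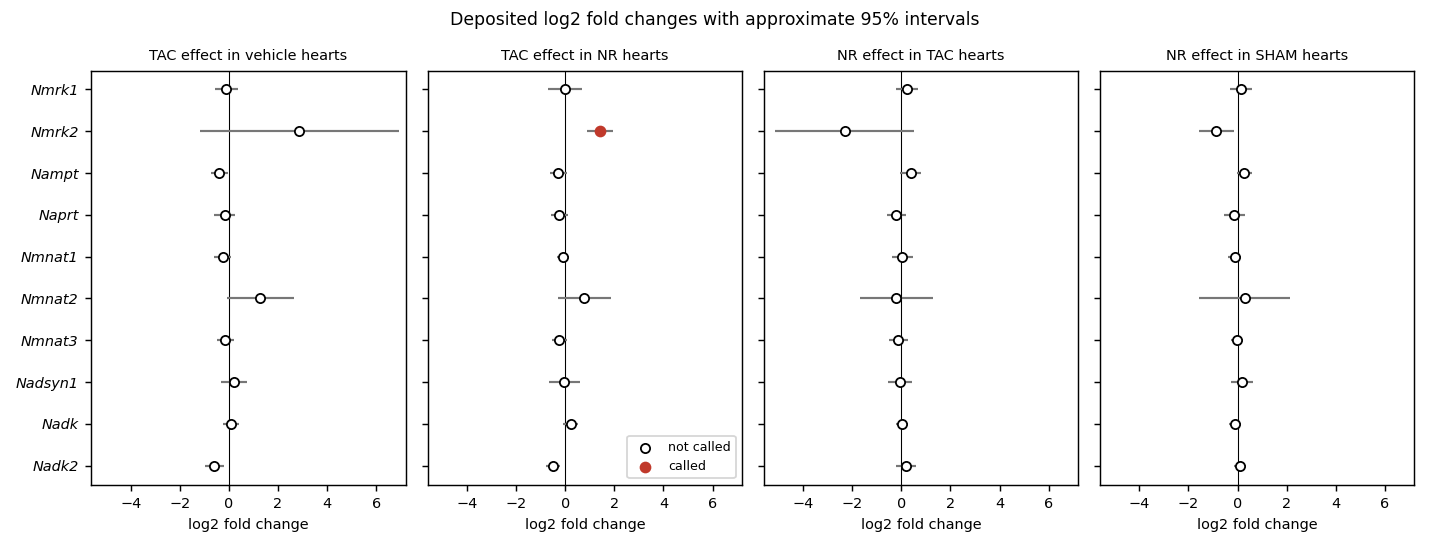
Deposited log2 fold changes of the 10 enzymes in the 4 comparisons (points; filled red where the adjusted DESeq p is below 0.05) with approximate 95% intervals from the deposited p-values (lines). Nmrk2 after TAC in NR hearts, at 1.43, is the filled point, and the Nmrk2 interval in vehicle hearts runs from −1.18 to 6.92.

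Counted over the 10 members, TAC in vehicle hearts called 0 of 10, beside 10 of 20540 genes or 0.0487%, and 2 members, Nampt and Nadk2, had an unadjusted DESeq p below 0.05, where the background was 4.89% of genes, in the authors' deposited table. TAC in NR hearts called 1 of 10 members, Nmrk2, beside 115 of 20946 genes or 0.549% (0.306% called higher), and Nadk2 joined it at an unadjusted DESeq p below 0.05, where the background was 6.98%, in the authors' deposited table. NR called 0 members and 0% of all genes under either surgery, and at an unadjusted DESeq p below 0.05 it gave 0 members in TAC hearts (2.61% of genes) and 1, Nmrk2, in SHAM hearts (1.88%) in the authors' deposited table. Median log2 fold changes of the members were −0.13, −0.06, −0.01 and 0.03 for TAC in vehicle hearts, TAC in NR hearts, NR in TAC hearts and NR in SHAM hearts, and each all-gene median lay within 0.0207 of 0 in the authors' deposited table. Scaling by totals would move every log2 value of TAC in vehicle hearts by 0.149, and those of the other comparisons by 0.0925, −0.0839 and −0.0324. The 2 TAC comparisons share no library, and 9 of 10 members had the same sign in both, all but Nadsyn1. The share was 66.1% over all genes, and 71.5% over genes whose mean reached 50, which that of Nmnat2 did not. For the 2 NR comparisons, which also share no library, it was 6 of 10 members, beside 56.7% of all genes and 60.2% of those whose mean reached 50. The TAC effect was tested for a difference between NR and vehicle hearts over 18774 genes and 0 passed (0%), with 158 genes or 0.842% at an unadjusted p below 0.05, none of them a member. Besides Nmrk2, the members' differences ran from −0.49 (Nmnat2, interval −2.24 to 1.25) to 0.17 (Nmnat1, −0.26 to 0.60).

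Patterns most like those of Nmrk2 and Nampt were sought as the smallest Euclidean distance over the 4 deposited log2 fold changes, among 11584 genes whose mean reached 50 in every table. The 4 comparisons join only 4 groups, so the values are not independent, and the likeness is a description. For Nmrk2 the closest was Cyp2e1, a cytochrome P450 abundant in liver and 1 of the 10 hepatocyte markers, at a distance of 0.425. Its log2 fold changes in the order used above were 2.99, 1.24, −2.67 and −0.91 in the authors' deposited table. The hepatocyte list had medians of 7.79, −1.72, −8.01 and 1.88 in that order. Cyp2e1 thus had the opposite sign to its list for TAC in NR hearts and NR in SHAM hearts, and was the lowest of the list in the latter. Next came Rbp4 (0.905) and Itih4 (0.965), which encode plasma proteins made in liver, then the matrix genes Col12a1 (1.38) and Comp (1.43). Distances scale with the size of the fold changes, so those for Nampt, whose values are small, cannot be compared with those for Nmrk2. Genes close to Nampt included Amd2 (0.0780), whose reads cannot be told apart safely from a near-identical copy. Dgat2, an enzyme of triglyceride synthesis, lay at 0.104 and Art5, of the ADP-ribosyltransferase family, at 0.113.

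Among the other NAD genes, the kynurenine route, which makes NAD+ from tryptophan mainly in liver, had the widest differences, and 0 of its genes passed in any comparison, at either the adjusted or the unadjusted DESeq p. After TAC in vehicle hearts 8 of 9 were positive with a median log2 fold change of 3.09, and Tdo2, the first enzyme of the route in liver, had means of 4.11 and 464 (adjusted DESeq p 1) in the authors' deposited table. In NR hearts 2 of the 8 listed were positive after TAC (median −0.13), and for NR in TAC hearts 8 of 9 were negative (median −3.24) in the authors' deposited table. Haao, a dioxygenase of the same route, had 4.31 and 155 counts in vehicle SHAM and TAC hearts and 157 and 4.73 in vehicle and NR TAC hearts in the authors' deposited table. These means moved with the hepatocyte sums given above, whose part in them was not tested. For NR in SHAM hearts 7 of 9 were positive (median 0.18) in the authors' deposited table.

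The 15 NAD consumers had medians between −0.03 and 0.00473 and 0 calls in all 4 comparisons, with 1 gene each for TAC in NR hearts and NR in SHAM hearts at an unadjusted DESeq p below 0.05, in the authors' deposited table. Bst1, which with Cd38 splits NAD+ at the cell surface, had the largest TAC values among them, 1.27 and 0.80 in vehicle and NR hearts (adjusted DESeq p 1 in both) in the authors' deposited table. Cd38 itself had 0.35 for TAC in vehicle hearts and −0.33 for NR in TAC hearts, and the deacetylase gene Sirt1 had 0.33 in the latter, with adjusted DESeq p of 1 in the authors' deposited table. Parp1, the main DNA damage polymerase, had −0.28 for TAC in NR hearts (adjusted DESeq p 0.697) in the authors' deposited table. Of the genes for precursor transport, nucleotidases and nicotinamide clearance, 15 of 17 were matched, without Slc22a13 and Slc5a8, and their medians ran from −0.05 to 0.115. One passed: Nt5c1a, a cytosolic nucleotidase of striated muscle that splits AMP, fell after TAC in NR hearts, from 724 to 466 counts (−0.64 on the log2 scale, adjusted DESeq p 0.0204) in the authors' deposited table. In vehicle hearts it had 678 and 491 (−0.46, adjusted DESeq p 1) in the authors' deposited table. Aox3, an aldehyde oxidase gene, had 87.1 and 289 counts in the vehicle TAC comparison and 294 and 114 for NR in TAC hearts (adjusted DESeq p 1 in both) in the authors' deposited table.

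The clock list was included because the CLOCK and BMAL1 factors are known to drive Nampt transcription. NR was accompanied by positive values of 13 of 18 clock genes in TAC hearts (median 0.298) and 14 of 18 in SHAM hearts (median 0.336), and 0 were called (3 and 0 at an unadjusted DESeq p below 0.05, beside 2.61% and 1.88% of all genes) in the authors' deposited table. The 3 were Per1 (0.68, DESeq p 0.00124), Nr1d2 (0.56, DESeq p 0.00344) and Per2 (0.82, DESeq p 0.0372). In SHAM hearts these had 0.64, 0.39 and 0.72 (DESeq p 0.253, 0.261 and 0.275) in the authors' deposited table. Ciart, a clock repressor gene, had 121 and 461 counts in vehicle and NR SHAM hearts and 269 and 477 in TAC hearts (adjusted DESeq p 1) in the authors' deposited table. The output factor gene Dbp had 1079 and 2060 in SHAM hearts (adjusted DESeq p 1) in the authors' deposited table. TAC gave clock medians of −0.04 and −0.03. The genes of the activating factors had negative values with NR: in TAC and SHAM hearts these were −0.33 and −0.57 for Arntl, which encodes BMAL1, −0.05 and −0.13 for Clock, and −0.30 and −0.70 for the related Npas2 (adjusted DESeq p 1) in the authors' deposited table. No relation between the clock genes and Nampt was tested. The hour of tissue collection is not given in the sources used here. The 16 AMPK, PPAR and SRF regulators, which include known activators of Nmrk2 and Nampt, had medians from −0.08 to 0.0466 and 0 calls (at most 1 gene in a comparison at an unadjusted DESeq p below 0.05) in the authors' deposited table. Their largest TAC values at a mean of at least 50 were −0.42 for the fatty acid receptor gene Ppara in vehicle hearts and 0.48 for the AMPK subunit gene Prkag2 in NR hearts (adjusted DESeq p 1 and 0.893) in the authors' deposited table.

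**Figure D5:**
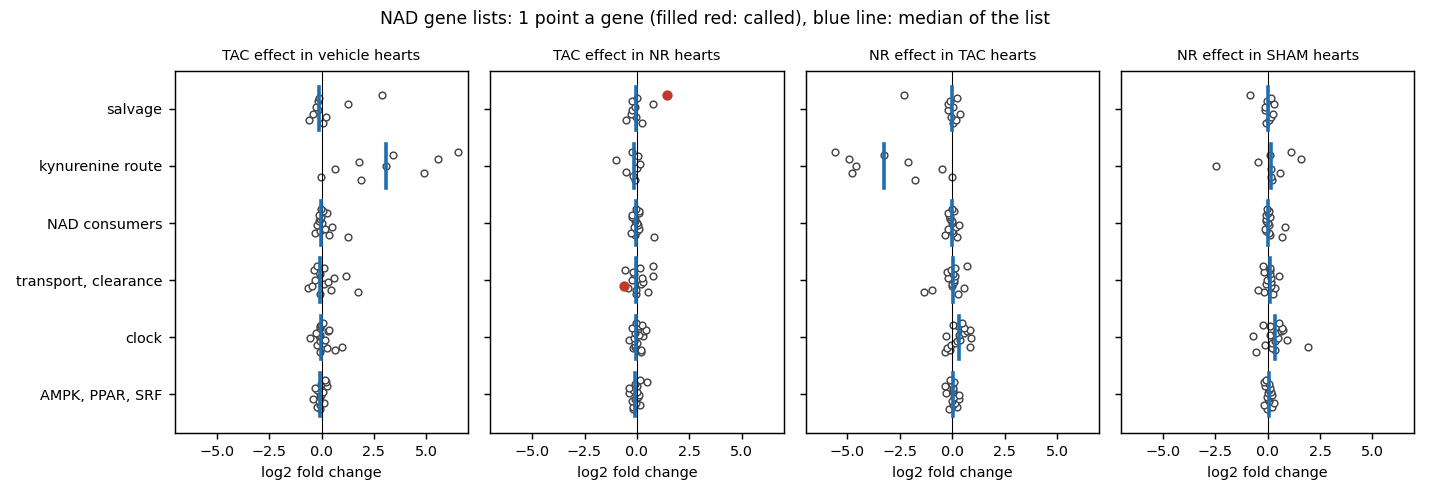
Deposited log2 fold changes (points, 1 per gene; filled red where called) of the salvage enzymes and the 5 other lists in the 4 comparisons, with the median of each list (blue line). The kynurenine route spreads to a median of 3.09 after TAC in vehicle hearts and −3.24 for NR in TAC hearts, the clock list has medians of 0.298 and 0.336 for NR in TAC and SHAM hearts, and the other medians lie between −0.13 and 0.18.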

How the data were processed

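RNA was made from heart tissue and sequenced by BGISEQ-500, per the labels' protocols. The submitters' processing notes name TopHat, HTSeq, DESeq and GRCm38, without versions. Each deposited signal column carries the name of 1 group and was read as that group's mean count after division by size factors. The deposited fold divides one mean plus 1 by the other plus 1, the deposited log2 value is its logarithm, and the deposited p-value is the authors' DESeq test of the pair. The adjusted p is its Benjamini-Hochberg adjustment over the table. Folds and adjusted p were recomputed and matched to rounding. The plus 1 understates changes of low genes.

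A gene was called at an adjusted p below 0.05. An error was approximated by dividing the log2 fold change by the normal quantile of the p-value, and differences between comparisons as a two-sided z from these errors. The z was first run on simulated data with 1 known spread for all genes, which does not show how it behaves on the deposited p-values. Here 0.842% of genes had an unadjusted p of this z below 0.05, fewer than a calibrated test gives when no gene differs. That 0 genes passed therefore does not show that the effects were equal. Size factors were set within pairs, so means were put on 1 scale by median ratios of shared groups (genes with a mean of at least 50; 0.9396 to 1.086, misfit 1.0008). Exon lengths and positions came from GENCODE M21. Python 3.11.15, numpy 2.4.6, pandas 2.3.3 and scipy 1.17.1 were used.

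The members and all lists were chosen with earlier results of these data known. Every member was named. From each pathway, regulator and marker list the called genes qualified, or else up to 2 with the largest absolute log2 fold change at a mean of at least 50, and the text gives a part of these, with the 5 genes most like Nmrk2 and Nampt, predicted models left out. For Nampt, 2 genes that this rule names are not reported here. Other list genes were chosen after their values were seen. Alternatives changed the threshold, pseudocount, minimum mean, centring and scale.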

Additional observations from a re-analysis of the deposited data

How the results depend on the processing

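All 40 log2 fold changes of the members kept their direction without the pseudocount, with a pseudocount of 10, after centring on the median, and through the other 3 tables. Scaling by the total of all gene means, added for the fold changes after seeing the data, reversed 5: Nmrk1 to 0.04 and 0.08 for TAC in vehicle and NR hearts, Nadsyn1 to 0.06 for TAC in NR hearts, and Nmnat1 to −0.04 and Nadk to −0.05 for NR in TAC hearts. For the levels the same scaling left 2 members with a 1.5-fold span in place of 4. The construction of that scaling shifts every gene of a comparison alike.

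Members passing in NR hearts after TAC numbered 2 in place of 1 (Nmrk2 and Nadk2) at an adjusted p below 0.1, at an unadjusted p below 0.05, and with a minimum mean of 10 or 50. An unadjusted p below 0.05 gave 2 members for TAC in vehicle hearts and 1 for NR in SHAM hearts, in place of 0. Over all genes it gave 1005, 1461, 558 and 374 for TAC in vehicle hearts, TAC in NR hearts, NR in TAC hearts and NR in SHAM hearts, and 158 for the difference of the TAC effects. An adjusted p below 0.01 left 3 and 37 genes for TAC in vehicle and NR hearts, and an absolute log2 value of 1 or more left 40 in NR hearts.

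Leaving out each library was not run, because the tables hold no values per library. No paired analysis was possible because the deposited columns are group means and carry no replicate numbers. Depth per library is unknown, so no counting error is given, and the intervals rest on the deposited p-values alone.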

Other observations

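Other marker lists also differed between groups. The 5 red cell markers summed to 22154 to 22186 counts in Vehicle SHAM, 24223 to 24242 in NR SHAM, 41978 to 42010 in Vehicle TAC and 44715 to 44810 in NR TAC. Lymphocyte markers summed to 325, 293, 486 and 401 in the same order, and endothelial markers to between 26792 and 29060. Adipocyte markers summed to between 10638 and 11662, most of it Fabp4, while other members differed widely. Their median log2 fold changes were −1.82 and 1.01 for TAC in vehicle and NR hearts, and 1.01 and −2.06 for NR in TAC and SHAM hearts in the authors' deposited table. Adipoq, which encodes the fat hormone adiponectin, had means of 390 and 74.7 for SHAM and TAC in vehicle hearts and of 360 and 53.8 for vehicle and NR in SHAM hearts in the authors' deposited table, and Ucp1 was at 0 in all groups but NR TAC. None of these marker genes was called in the authors' deposited table of any comparison, and an unadjusted DESeq p below 0.05 was found for at most 1 gene of each list.

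Gdap10, a noncoding gene that overlaps Nampt on the same strand and shares none of its exon bases, had means of 76.4 and 55.0 for SHAM and TAC in vehicle hearts and 109 and 61.0 in NR hearts in the authors' deposited table.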
